A study of Danio rerio with 20 samples.

Results

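Tumor-free livers of adult male zebrafish were examined here: the 9 libraries, of 20 in the series, whose fish had no hepatocellular carcinoma (HCC) and carried no β-catenin transgene. They were taken by their labels and form 2 control groups. The Cre driver group held 4 fish (630, 628, 621 and 622) at 11 months post fertilization (mpf). These carried Tg(fabp10a-CreERT2), in which the hepatocyte promoter of fabp10a drives a tamoxifen-dependent Cre recombinase, and had been kept in 0.1% ethanol as larvae between days 3 and 6, the vehicle of the CreLox experiment. The Wild Type group held 5 fish (317C1, 317C2, 317C4, 317C5 and 317C8) at 6 mpf, which were the non-transgenic and untreated controls of the HepABC experiment. Of each liver, part went to histology and part to bulk mRNA sequencing. Age, transgene, ethanol, experiment and the removal of optical duplicates, which is described for the CreLox experiment only, all follow the same 2 groups and cannot be told apart. No within-experiment value of the group difference can be had either, since each experiment holds 1 of the groups. The study's methods name the AB and TL strains without assigning them to these fish, and the clutch of each fish is not given in the sources used here, so p-values measure the spread between these fish only.

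The liver is mostly hepatocytes, which secrete the proteins of the blood plasma, store and release glucose and lipid, break down amino acids, make bile acids and modify foreign compounds. In zebrafish the fabp10a protein binds fatty acids and bile acids in these cells, and the exocrine pancreas lies next to the liver along the gut. Between meals a hepatocyte moves from making fat and glycogen to burning fat and making glucose, and under infection or interferon it turns on acute phase and antiviral genes. These are general properties of the tissue, given as background to the gene groups that follow.

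Library totals ran from 20903187 to 29925385 counts in Cre driver fish and from 24832450 to 37994885 counts in Wild Type fish, with 19874 to 21968 and 19474 to 20087 of 32520 genes detected. Levels are given as counts per 1000000 counts of a library (CPM), scaled by TMM factors that were 1.22 and 1.25 in fish 630 and 628 and between 0.888 and 1.05 in the other 7. CPM values of the Cre driver livers are listed in the order 630, 628, 621, 622, and those of the Wild Type livers in the order 317C1, 317C2, 317C4, 317C5, 317C8. Genes are named by the symbol of the reference table with their Ensembl identifier. A symbol that several identifiers carry is marked as shared. Fold changes in parentheses are on the log2 scale, Cre driver over Wild Type, as the estimate ± its standard error, with the p of edgeR's quasi-likelihood test adjusted over all genes tested.

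The fish did not form 2 tight groups. The distance between fish, taken as the root mean square difference in log2 CPM over the 15220 genes tested, was 0.846 between fish 630 and 628 and 0.83 between fish 621 and 622, against 1.08 to 1.16 between the members of these pairs. Among Wild Type fish it was 0.813 between 317C1 and 317C2 and 0.843 between 317C4 and 317C5, with 317C8 at 0.971 from 317C4 and 0.989 from 317C5. Fish 621 was closer to 317C2 (1.02) than to fish 628 of its own group (1.16). The first component of a principal component analysis held 31.6% of the variance and placed 630 and 628 at -79.4 and -78.6, 622 and 621 at -19.6 and -26.7, 317C1 and 317C2 at 8.39 and 2.8, and the other Wild Type fish between 54.5 and 71.8. Of the 8501 genes with an average log2 CPM of at least 2, 5516 (64.9%) had fish 630 and 628 both above or both below fish 621 and 622. These pairs were picked after their distances were seen, so this share is no separate support for the split. What set these fish apart was not tested.

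Hepatocyte genes were high in every fish. The 37 matched genes of a list of hepatocyte products summed to 210200, 212500, 341200 and 336500 CPM in Cre driver livers and 296600, 293300, 322700, 265600 and 323800 CPM in Wild Type livers. At this scaling 630 and 628 were lowest and 621 and 622 highest of all 9. The TMM factors, 1.22 and 1.25 in 630 and 628 and 0.888 and 0.904 in 621 and 622, widen this gap. As an unscaled share of counts, the 20 most abundant genes were highest in 317C8 (34.62%). Markers of testis and germ cells summed to at most 4.95 CPM in any fish. Erythrocyte markers summed to 195.4, 320.1, 710.2 and 265 CPM in Cre driver livers and 406.2, 450.7, 763.8, 663.2 and 360.8 CPM in Wild Type livers, and endothelial markers to 128.6, 105.3, 142.2 and 163.3 CPM and 125.5, 124.6, 135.1, 144.2 and 163.4 CPM, with overlapping ranges in both lists. Exocrine pancreas markers spread most widely of these lists. Their sum was 298.1, 51.45, 626.9 and 87.73 CPM in Cre driver livers and 7028, 1670, 2439, 739.4 and 15.99 CPM in Wild Type livers, highest in 317C1 and lowest in 317C8 of the same group. The vitellogenins, egg yolk proteins that the female liver makes, were low: vtg5 had at most 32 CPM in any fish, vtg1 8.17 CPM in fish 621 and under 1 CPM in the other 8, and the other matched members under 1 CPM throughout.

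The most abundant genes encoded plasma proteins. The 20 genes with the highest mean level took 30.37 ± 2.74% of counts in Cre driver livers (SD, n = 4) and 31.7 ± 1.99% in Wild Type livers (SD, n = 5), a difference of -1.34 percentage points (exact two-sided permutation test over fish, p = 0.421; the smallest p this design allows is 0.0159). Levels of different genes are shares of counts, not divided by transcript length, so they rank reads and not molecules. Lipoprotein genes led: apoa1b (ENSDARG00000101324), the main protein of high-density lipoprotein, took between 3.5 and 5.22% of counts in each fish, and apoa2 (ENSDARG00000015866) between 3.16 and 5.38%. tfa (ENSDARG00000016771), the iron carrier transferrin, followed with 2.05 to 4.73%. The other lipoprotein genes of the 20 were apoc1 (ENSDARG00000092170) and apobb.1 (ENSDARG00000022767). Coagulation and complement contributed the 3 fibrinogen chains fga (ENSDARG00000020741), FGB (ENSDARG00000008969) and FGG (ENSDARG00000037281), complement c3a.1 (ENSDARG00000012694) and fibronectin FN1 (ENSDARG00000006526, shared symbol). The heme scavenger hpxa (ENSDARG00000012609), the protease inhibitor serpina1l (ENSDARG00000090850), the fetuin fetub (ENSDARG00000053973) and the pentraxin apcs (ENSDARG00000045089) completed the secreted proteins. Inside the cell, the glycolytic enzyme GAPDH (ENSDARG00000043457), the uncoupling protein UCP1 (ENSDARG00000023151), translation factor eef1a1l1 (ENSDARG00000020850) and the mitochondrial MT-CO1 (ENSDARG00000063905) belonged to the 20.

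**Figure D1:**
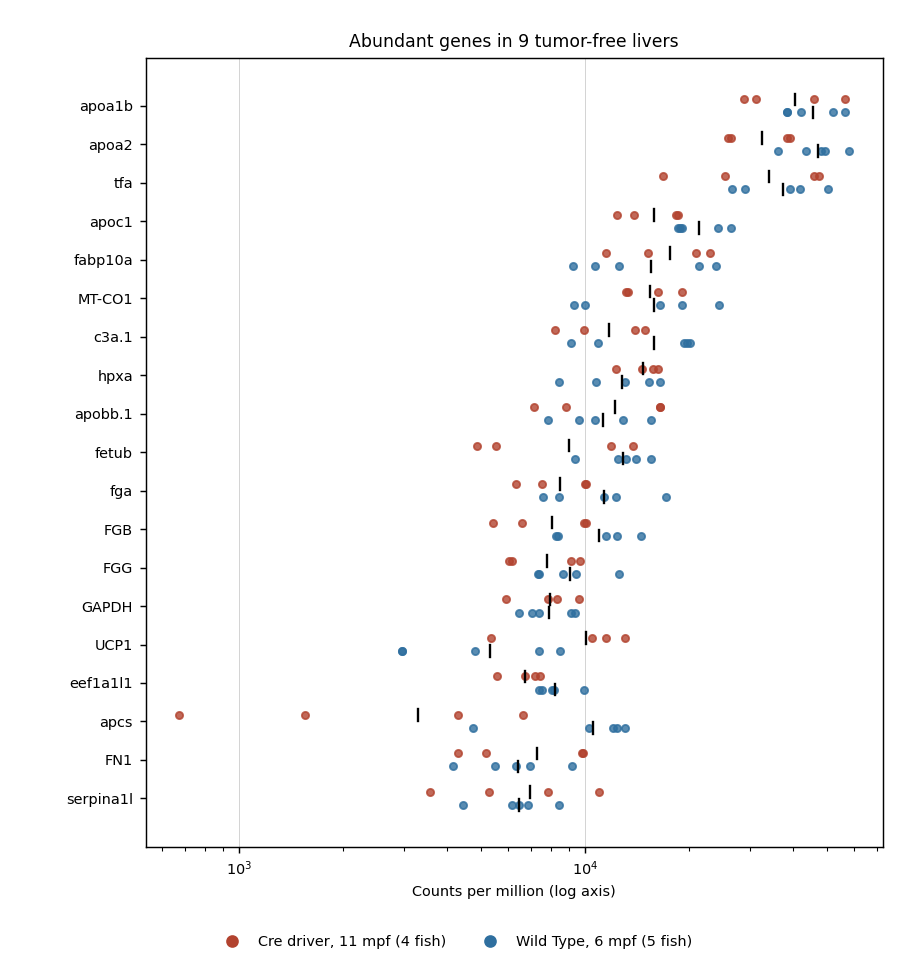
Level of 19 abundant genes in each of the 9 livers, in CPM on a log axis. Each point is 1 fish, Cre driver fish (11 mpf) above Wild Type fish (6 mpf), and the black bar is the group mean. The pentraxin apcs spread most of those plotted, between 673 CPM in fish 630 and 13100 CPM in fish 317C5.

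Within this core the spread between fish was small for most genes, and none of the 20 passed the test between the groups. fabp10a (ENSDARG00000038439), whose promoter drives the Cre transgene, had 11500, 15200, 23000 and 21000 CPM in Cre driver livers and 23900, 21400, 12600, 9230 and 10700 CPM in Wild Type livers. The groups overlapped, with 317C1 above every other fish and 317C5 below every other (0.19 ± 0.33, edgeR adjusted p = 0.779). The steadiest was eef1a1l1, with a pooled SD within groups of 0.18 on the log2 scale, and the least steady apcs, with 1.07. The apcs level was 673, 1560, 4310 and 6630 CPM in Cre driver livers and 4770, 12400, 12100, 13100 and 10300 CPM in Wild Type livers. Its lowest values lay in 630 and 628, and fish 622 lay above 317C1 (-1.68 ± 0.59, edgeR adjusted p = 0.159). UCP1, which lets protons leak across the inner mitochondrial membrane, had 10500, 5370, 13100 and 11500 CPM in Cre driver livers and 7360, 8480, 2970, 2970 and 4830 CPM in Wild Type livers, again with overlap (0.93 ± 0.38, edgeR adjusted p = 0.201).

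A gene was called variable when the SD of its log2(CPM + 0.5) values within the groups, pooled over both, was over 1 and its average log2 CPM at least 2. By this rule 647 of 8501 genes (7.61%) varied between fish of the same group. No group difference enters this measure, and no test was made of it. In Cre driver fish, 621 or 622 was the highest in 218 and 200 of the 647 genes and 630 or 628 the lowest in 215 and 191. Fish 630 and 628 were both above or both below 621 and 622 in 381 of the 647 (58.9%). That share is lower than the 64.9% of all 8501 genes, so that split was not particular to the variable genes. In Wild Type fish the highest value was spread more evenly, over between 106 and 145 genes for each fish. Fish 317C1 and 317C2 were both above or both below 317C4, 317C5 and 317C8 in 373 of the 647 (57.7%). This is higher than the 48.3% of all 8501 genes, so the Wild Type split was more common among the variable genes. Both splits were picked after the distances between fish were seen. As bulk tissue was sequenced, a low level may mean fewer cells of a type or less RNA in each cell, and the 2 cannot be told apart.

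Some genes of the fed and fasted state were among the 647. Of glucose and glycogen genes with an average log2 CPM of at least 2, 2 of 22 were variable. Of fatty acid oxidation genes it was 2 of 34, against 7.61% of all genes. Both counts lie close to that share, so neither list stood out as variable. The genes of this paragraph and of the next 3 were chosen after their values were seen. PDK2 (ENSDARG00000020876, shared symbol), a kinase that shuts off pyruvate dehydrogenase and so spares glucose, had 5.44, 1.28, 189 and 185 CPM in Cre driver livers and 284, 187, 248, 235 and 222 CPM in Wild Type livers. It was low in 630 and 628 alone, and the other 7 fish lay within a narrow range. IGFBP1 (ENSDARG00000099351), which binds insulin-like growth factors and is repressed by insulin, had 198, 13.1, 1250 and 831 CPM in Cre driver livers and 2140, 1380, 347, 814 and 232 CPM in Wild Type livers. Its paralog igfbp1b (ENSDARG00000038666) had 2.44, 0.739, 85.2 and 69.7 CPM in Cre driver livers and 143, 52.2, 117, 73.4 and 25.6 CPM in Wild Type livers, so both were lowest in fish 628. The insulin receptor substrate IRS2 (ENSDARG00000037099, shared symbol) had no count in fish 628 and 14.3 to 58.9 CPM in the other 8. It also met the rule for the all-or-none genes of the Cre driver fish given below.

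A further set split the Wild Type fish. PCK1 (ENSDARG00000013522), the entry enzyme of glucose synthesis, had 4400, 972, 4180 and 2410 CPM in Cre driver livers and 3950, 3970, 460, 354 and 575 CPM in Wild Type livers. Fish 317C1 and 317C2 matched the Cre driver fish 630 and 621, while 317C4, 317C5 and 317C8 lay below every other fish. ldlra (ENSDARG00000029476), the receptor that takes up low-density lipoprotein, showed a similar order with 339, 145, 1780 and 1060 CPM in Cre driver livers and 1160, 1740, 166, 65.5 and 163 CPM in Wild Type livers, except that fish 628 lay at the level of the 3 low fish. LPIN1 (ENSDARG00000020239), a phosphatidate phosphatase, had 406, 53.2, 430 and 200 CPM in Cre driver livers and 260, 679, 27.1, 19.3 and 69.5 CPM in Wild Type livers. ARG2 (ENSDARG00000039269), an arginase that yields urea and ornithine, had 896, 263, 779 and 906 CPM in Cre driver livers and 280, 171, 5.3, 22.8 and 12.1 CPM in Wild Type livers, and was again lowest in 317C4, 317C5 and 317C8. For this arginase, fish 628 lay between 317C1 and 317C2, and the other Cre driver fish lay above every Wild Type fish. DIO2 (ENSDARG00000094857), which activates thyroid hormone, had 1910, 1580, 582 and 203 CPM in Cre driver livers and 528, 2100, 33.3, 116 and 55.9 CPM in Wild Type livers. These 3 Wild Type fish were lowest for DIO2 too. Tryptophan dioxygenase tdo2b (ENSDARG00000023176) was instead low in 630 and 628, with 121, 21.1, 1580 and 1810 CPM in Cre driver livers and 1640, 1510, 601, 571 and 558 CPM in Wild Type livers. CEBPA (ENSDARG00000036074), a transcription factor of hepatocytes, was high in the same 2 fish, with 222, 248, 13.1 and 6.59 CPM in Cre driver livers and 8.24, 52.7, 4.82, 8.58 and 4.74 CPM in Wild Type livers.

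Chaperones of the endoplasmic reticulum, which fold secreted proteins, were high in fish 630 and 628. HSPA5 (ENSDARG00000103846), the main one, had 868, 2440, 173 and 186 CPM in Cre driver livers and 58.2, 58.6, 123, 149 and 43.8 CPM in Wild Type livers. All 4 Cre driver fish lay above the 5 Wild Type fish, but most of the difference came from 2 of them (3.40 ± 0.79, edgeR adjusted p = 0.0663). The same fish led for HYOU1 (ENSDARG00000013670), with 182, 385, 28.8 and 31.6 CPM in Cre driver livers and 28.1, 21.2, 60.4, 71.8 and 35.4 CPM in Wild Type livers, and for PDIA4 (ENSDARG00000018491), with 173, 429, 35.7 and 34.2 CPM and 33.4, 21.9, 152, 129 and 34.7 CPM. For PDIA4, fish 317C4 and 317C5 came close to fish 630. Over the whole list, 10 of the 35 genes above the level limit were variable, and the list sum was 6163, 9681, 4171 and 3768 CPM in Cre driver livers and 3569, 4282, 5827, 5354 and 4012 CPM in Wild Type livers.

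Interferon response genes separated 317C4, 317C5 and 317C8 from the remaining fish. The 41 matched genes summed to 236.2, 303.3, 343.2 and 344.9 CPM in Cre driver livers and 266.5, 284.2, 1305, 1359 and 1205 CPM in Wild Type livers, and 14 of 25 above the level limit were variable. isg15 (ENSDARG00000086374), a ubiquitin-like antiviral protein, had 2.25, 2.13, 12.4 and 13.4 CPM in Cre driver livers and 8.54, 18.4, 172, 235 and 175 CPM in Wild Type livers. RSAD2 (ENSDARG00000004952), which blocks viral replication, had 3.23, 3.19, 5.95 and 10.5 CPM in Cre driver livers and 6.35, 7.63, 73.9, 90.8 and 110 CPM in Wild Type livers. ifit8 (ENSDARG00000057173) had 2.13, 2.42, 4.33 and 6.89 CPM in Cre driver livers and 2.84, 3.83, 146, 115 and 136 CPM in Wild Type livers. The same 3 fish were the highest for all 3 genes, and 317C1 and 317C2 lay within or near the range of the Cre driver fish. Macrophage and neutrophil markers summed to 300.4, 468.1, 413.2 and 827.4 CPM in Cre driver livers and 211, 201.3, 919.7, 860 and 437.8 CPM in Wild Type livers, and their part in the interferon genes was not tested.

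Acute phase and iron genes summed to 23290, 33010, 61210 and 63080 CPM in Cre driver livers and 51850, 62990, 50770, 52120 and 68010 CPM in Wild Type livers, lowest in 630 and 628, and 10 of 24 above the level limit were variable. The C-reactive protein gene crp5 (ENSDARG00000056498) had 110, 364, 652 and 238 CPM in Cre driver livers and 29.8, 1.48, 2630, 1940 and 394 CPM in Wild Type livers, so its highest and its lowest values both came from Wild Type fish, and 317C1 and 317C2 were the lowest of all. Haptoglobin, hp (ENSDARG00000051890), which binds free hemoglobin, had 0.512, 0.683, 3.88 and 5.75 CPM in Cre driver livers and 133, 127, 304, 408 and 4.66 CPM in Wild Type livers. Haptoglobin was chosen after its values were seen. Only 317C8 among the Wild Type fish lay within the Cre driver range (-6.18 ± 1.29, edgeR adjusted p = 0.0545). The intelectin ITLN1 (ENSDARG00000095082, shared symbol) had 1.26, 71.5, 106 and 273 CPM in Cre driver livers and 105, 1.78, 80.3, 100 and 129 CPM in Wild Type livers, with 1 very low fish in each group. Vitamin D genes were spread widely in both groups. CYP24A1 (ENSDARG00000103277), which inactivates the hormone, had 28.2, 2.39, 294 and 160 CPM in Cre driver livers and 445, 66.5, 45.5, 173 and 1.91 CPM in Wild Type livers, and CYP2R1 (ENSDARG00000056587), which makes its precursor, had 61.7, 125, 0.716 and 3.4 CPM and 1.24, 129, 5.42, 11.3 and 5.33 CPM. Elongase ELOVL6 (ENSDARG00000004402), which lengthens fatty acids, had 45.9, 19.5, 0.339 and 2.18 CPM in Cre driver livers and 69.8, 9.41, 172, 58.1 and 338 CPM in Wild Type livers.

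**Figure D2:**
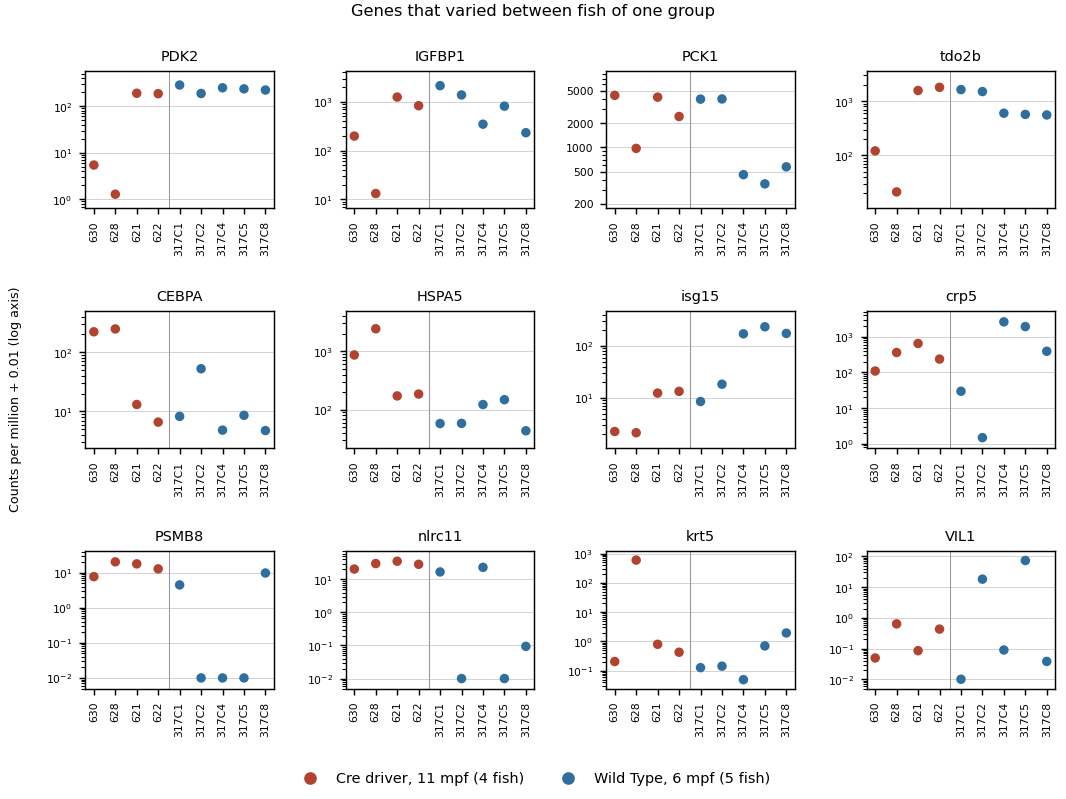
Level of 12 genes in each fish, in CPM plus 0.01 on a log axis, with Cre driver fish (11 mpf) left of Wild Type fish (6 mpf). Each point is 1 fish. PDK2 and tdo2b are low in fish 630 and 628, isg15 is high in fish 317C4, 317C5 and 317C8, PSMB8 has no count in 3 Wild Type fish, and krt5 is high in fish 628 alone.

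Some genes were all or none. Genes with at most 3 counts in 1 fish and at least 5 CPM in another of the same group numbered 142 in Cre driver fish and 212 in Wild Type fish, 16 of them in both. Of the 142, 94 were highest in fish 628, and of the 212, 104 were highest in fish 317C5. PSMB8 (ENSDARG00000001303) was among the 212. It encodes a subunit of the immunoproteasome, which cuts peptides for MHC class I, and had 7.68, 20.3, 17.8 and 12.8 CPM in Cre driver livers and 4.46, 0, 0, 0 and 9.76 CPM in Wild Type livers. Its companions psmb12 (ENSDARG00000031885), with 5.75, 15, 9.83 and 6.51 CPM and 4.61, 0, 0, 0 and 4.83 CPM, psmb13a (ENSDARG00000001656), with 4.29, 15.8, 10.8 and 4.96 CPM and 3.34, 0, 0, 0 and 4.71 CPM, and PSMB9 (ENSDARG00000000656), with 5.12, 12, 7.95 and 5 CPM and 2.95, 0, 0, 0 and 4.15 CPM, had no count in the same 3 Wild Type fish but stayed under 5 CPM in the other Wild Type fish. A count of 0 allows at most 3 counts, or between 0.101 and 0.12 CPM in these 3 libraries, and covers counting error only. As background, the zebrafish MHC class I region is known to differ in gene content between haplotypes. Whether it did between these fish was not tested.

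Further genes with wide steps between fish split them in other ways. The NOD-like receptor gene nlrc11 (ENSDARG00000068621) had 20.5, 30.1, 35.4 and 28.6 CPM in Cre driver livers and 16.8, 0, 23.1, 0 and 0.0842 CPM in Wild Type livers, and the chemokine ccl39a.10 (ENSDARG00000096060), with the highest pooled SD of the 647 genes (4.62), had 46, 69, 0 and 0.084 CPM and 0.0295, 0, 339, 308 and 0 CPM. The RNase-like gene rnasel2 (ENSDARG00000043196) had 3.98, 0.341, 3.5 and 0.294 CPM in Cre driver livers and 5.85, 0.235, 17.1, 2020 and 1260 CPM in Wild Type livers, where 317C5 and 317C8 stood far above the other 7 fish, although no fish was at or under 3 counts. The acetyltransferase gene sat2a.2 (ENSDARG00000036430) had 166, 227, 104 and 142 CPM in Cre driver livers and 240, 201, 0.0797, 0.0773 and 0.0281 CPM in Wild Type livers. Its low fish were the 3 with high interferon genes. For genes with near-identical copies, the counting may have split reads between copies.

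Markers of other tissues varied as well. Of 17 exocrine pancreas markers above the level limit, all 17 were variable. Trypsin prss1 (ENSDARG00000042993) had 64.4, 9.39, 113 and 16.2 CPM in Cre driver livers and 1390, 312, 402, 125 and 5.33 CPM in Wild Type livers, and carboxypeptidase CPB1 (ENSDARG00000045442) had 16.5, 3.3, 49.5 and 3.36 CPM and 652, 156, 214, 55.8 and 0.673 CPM. For both genes the order of the Wild Type fish was that of the list sum, with 317C1 first and 317C8 last, below the Cre driver fish. Of the intestinal lining, villin, VIL1 (ENSDARG00000040466), had 0.0394, 0.626, 0.0753 and 0.42 CPM in Cre driver livers and 0, 18.2, 0.0797, 73.6 and 0.0281 CPM in Wild Type livers, and FABP2 (ENSDARG00000006427), the fatty acid binding protein of enterocytes, had 43.7, 127, 133 and 45.5 CPM and 5.05, 154, 42.1, 430 and 21.1 CPM. The intestine list as a whole summed to 577.1, 832, 941.6 and 1374 CPM in Cre driver livers and 1509, 1891, 1315, 2728 and 2520 CPM in Wild Type livers. VIL1 and FABP2 were highest in 317C5 and then 317C2, while the list sum was highest in 317C5 and then 317C8, which was near 0 for VIL1. Fish 628 alone had krt5 (ENSDARG00000058371), a keratin of stratified epithelia, at 596 CPM, against 0.0398 to 1.94 CPM in the other 8 fish. Integrin ITGB4 (ENSDARG00000028507), of the junctions that anchor such cells, had 54.3 CPM in fish 628 and at most 1.14 CPM elsewhere, and AQP3 (ENSDARG00000003808), a water channel, 39.3 CPM and at most 0.462 CPM. VIL1, FABP2, ITGB4, AQP3, the immunoproteasome genes and nlrc11 were chosen after their values were seen.

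**Figure D3:**
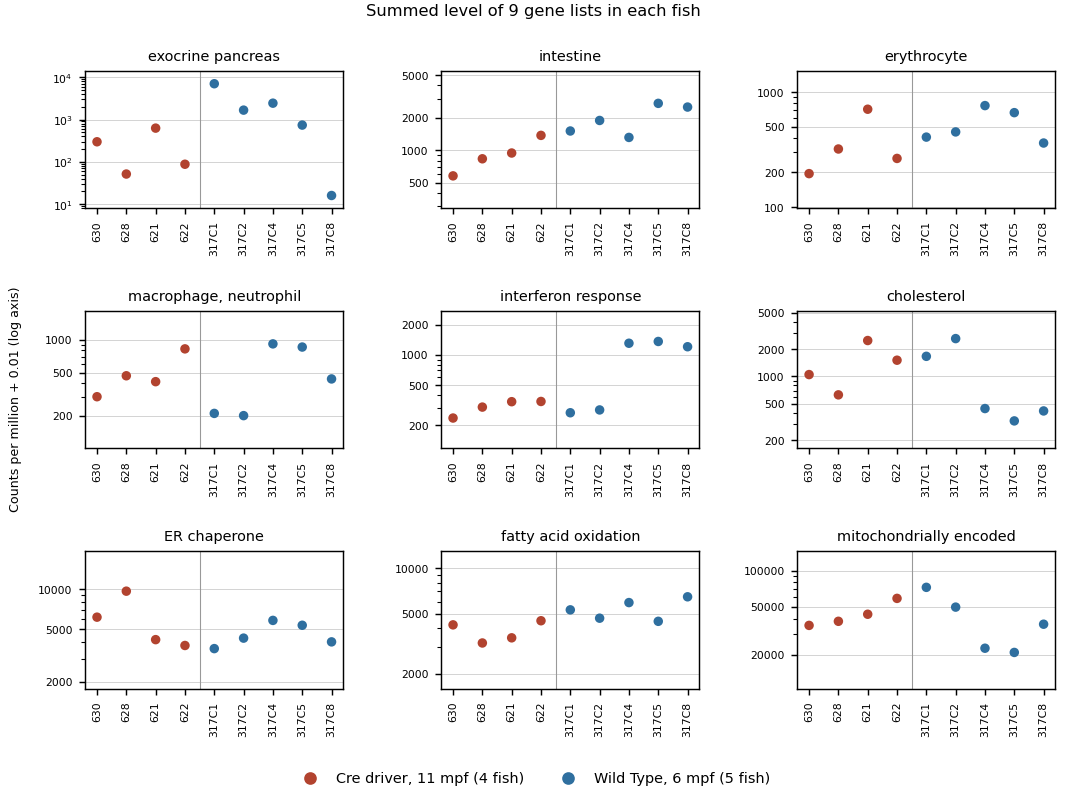
Summed level of 9 gene lists in each fish, in CPM plus 0.01 on a log axis, with Cre driver fish (11 mpf) left of Wild Type fish (6 mpf). Each point is 1 fish. The exocrine pancreas sum lies between 16 CPM in fish 317C8 and 7028 CPM in fish 317C1, and the interferon sum between 1205 and 1359 CPM in fish 317C4, 317C5 and 317C8, against at most 344.9 CPM elsewhere. The intestine sum may not measure intestinal tissue alone.

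Between the groups, 144 of 15220 genes (0.946%) were called, with 80 higher (0.526%) and 64 lower (0.420%) in Cre driver livers at 11 mpf than in Wild Type livers at 6 mpf. A call is a Benjamini-Hochberg adjusted p under 0.05 from edgeR's quasi-likelihood test over all genes tested. The median absolute log2 fold change of the called genes was 2.35. The signed median over all genes tested was 0.03, which does not measure the size of change. At an unadjusted p under 0.05 there were 3203 genes (21.0%). In 143 of the 144 called genes the groups did not overlap, against 1416 genes (9.30%) of all. DESeq2's Wald test called 1603 of 25019 genes (6.41%), 2.99% higher and 3.42% lower, and a fit of all 20 libraries 916. The 25019 include low-count genes that edgeR's filter removed. The numbers of list members tested, given below, are those of edgeR, so the DESeq2 shares are not a like background for them. Single fish moved the count too: it was 71 without fish 630, 57 without 628, 94 without 621, 74 without 317C4, 69 without 317C5 and 76 without 317C8. Without both 630 and 628 it was 25, and 38 of the 144 genes passed in each of the 9 fits that left out 1 fish. For each called gene described below, the number of those 9 fits in which it passed is given. Called genes named for a large change or high level were taken only from those without overlap, so their lack of overlap is no separate result. The same holds for the other called genes, as 143 of the 144 did not overlap.

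**Figure D4:**
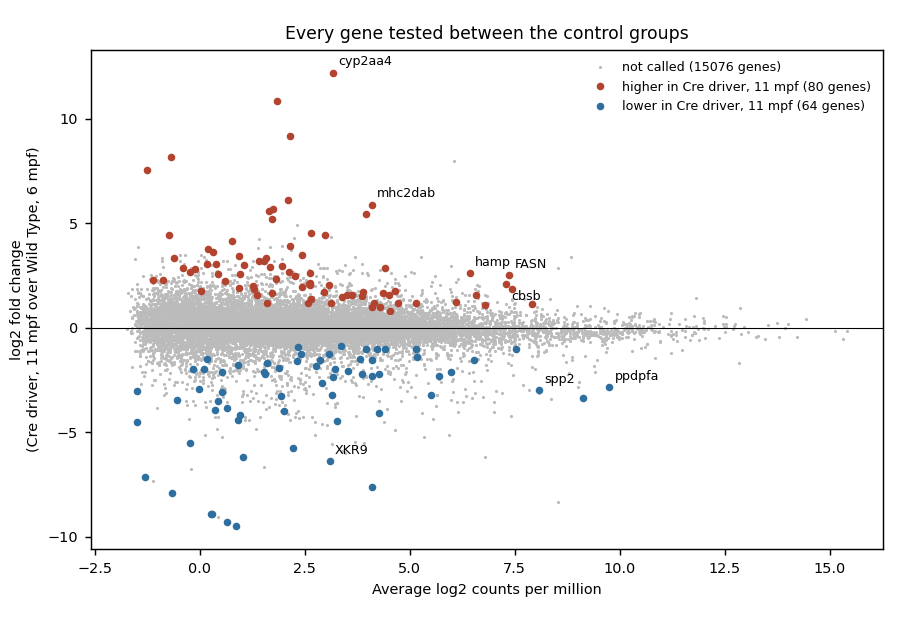
Average log2 CPM (x axis) and log2 fold change of Cre driver livers (11 mpf) over Wild Type livers (6 mpf, y axis) for the 15220 genes tested. Red points are the 80 called genes that were higher and blue points the 64 that were lower. The fitted fold change of genes without counts in 1 group, such as cyp2aa4, depends on the prior count of the fit.

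Of 23 fatty acid and triglyceride synthesis genes tested, 2 were called (8.7%), both higher, against 0.946% of all genes. At an unadjusted p under 0.05, 3 of the 23 were higher and 2 lower, close to the 11.0% and 10.1% of all genes. DESeq2 called 2 higher and 2 lower, and the list median was 0.22. Its shares were 2.99% and 3.42% of 25019 genes, a wider set than edgeR tested. Of 29 glucose and glycogen genes tested, 0 were called by edgeR. At an unadjusted p under 0.05, 4 of the 29 were higher, against 11.0% of all genes, and DESeq2 called 1. FASN (ENSDARG00000087657), fatty acid synthase, had 561, 401, 169 and 90.7 CPM in Cre driver livers and 82.3, 52, 35.7, 39.6 and 58.1 CPM in Wild Type livers. The groups did not overlap, but fish 622 was close to 317C1, and 630 and 628 carried most of the difference (2.51 ± 0.49, edgeR adjusted p = 0.0487; past the threshold in 1 of 9 fits). SREBF1 (ENSDARG00000067607), a transcription factor that turns on fatty acid synthesis, was higher too, with 52.4, 39.2, 47.1 and 25.9 CPM in Cre driver livers and 11.7, 10.3, 13.4, 16.4 and 9.09 CPM in Wild Type livers (1.76 ± 0.25, edgeR adjusted p = 0.0145; past the threshold in 9 of 9 fits). The glucose transporter SLC2A1 (ENSDARG00000007412, shared symbol) rose to 17.3, 13.5, 9.08 and 6.13 CPM in Cre driver livers, against 1.36, 1.68, 2.83, 2.05 and 1.37 CPM in Wild Type livers (2.63 ± 0.35, edgeR adjusted p = 0.0113; past the threshold in 9 of 9 fits). MLYCD (ENSDARG00000104732), which removes the malonyl-CoA that fatty acid synthesis uses, was lower, with 3.94, 3.67, 2.86 and 3.44 CPM in Cre driver livers and 14, 12, 18, 12 and 14.5 CPM in Wild Type livers (-2.0 ± 0.21, edgeR adjusted p = 0.00422; past the threshold in 9 of 9 fits). These 4 genes kept every Cre driver fish on one side of every Wild Type fish. MLYCD was chosen after its values were seen.

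Several metabolic genes were lower. IDH1 (ENSDARG00000025375), an isocitrate dehydrogenase that yields NADPH, had 37.1, 55.7, 28.6 and 54.3 CPM in Cre driver livers and 95.8, 83.9, 170, 156 and 147 CPM in Wild Type livers (-1.57 ± 0.30, edgeR adjusted p = 0.0448; past the threshold in 1 of 9 fits). The aldehyde dehydrogenase aldh2.2 (ENSDARG00000028087) had 94.3, 113, 150 and 118 CPM in Cre driver livers and 210, 258, 248, 219 and 270 CPM in Wild Type livers, a narrow spread in both groups (-1.02 ± 0.19, edgeR adjusted p = 0.0403; past the threshold in 1 of 9 fits). SLC25A36 (ENSDARG00000038731), a mitochondrial nucleotide carrier, was lower in all 4 Cre driver fish, at 7.48, 8.9, 19.4 and 27.6 CPM, against 108, 56.7, 71.9, 53.4 and 109 CPM in Wild Type livers (-2.33 ± 0.44, edgeR adjusted p = 0.0437; past the threshold in 2 of 9 fits). In each of these 3 genes the highest Cre driver fish lay below the lowest Wild Type fish. The nuclear receptor hnf4b (ENSDARG00000104742), a paralog of HNF4A, had 13.9, 17, 26.4 and 30.1 CPM in Cre driver livers and 65.3, 43.5, 134, 99.1 and 135 CPM in Wild Type livers (-2.13 ± 0.39, edgeR adjusted p = 0.0407; past the threshold in 2 of 9 fits). In contrast cbsb (ENSDARG00000010946), cystathionine beta-synthase, which turns homocysteine toward cysteine, was higher in every Cre driver fish, with 348, 212, 311 and 219 CPM against 54.5, 64, 53.8, 73.7 and 71.7 CPM in Wild Type livers (2.1 ± 0.21, edgeR adjusted p = 0.00417; past the threshold in 9 of 9 fits).

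Of the enzymes that modify foreign compounds and steroids, members of the same family moved in opposite directions. Among 69 cytochrome P450 genes tested, 3 were higher and 1 lower (5.8%, against 0.946% of all genes), with a list median log2 fold change of 0.00. cyp2p7 (ENSDARG00000042980) had 27.2, 33.8, 37 and 34.5 CPM in Cre driver livers and 8.3, 9.99, 8.65, 13.7 and 11.8 CPM in Wild Type livers (1.66 ± 0.20, edgeR adjusted p = 0.0062; past the threshold in 9 of 9 fits). Its relative cyp2p10 (ENSDARG00000042990) had 4.02, 2.67, 3.8 and 3.65 CPM in Cre driver livers and 9.01, 8.44, 11.2, 12 and 10.8 CPM in Wild Type livers (-1.53 ± 0.20, edgeR adjusted p = 0.0113; past the threshold in 9 of 9 fits). CYP2U1 (ENSDARG00000026548) was higher, with 37.7, 28.1, 39.9 and 48 CPM in Cre driver livers and 17.8, 16.1, 12.3, 18.8 and 19.8 CPM in Wild Type livers (1.18 ± 0.21, edgeR adjusted p = 0.0359; past the threshold in 1 of 9 fits). None of these 3 overlapped between the groups. The fourth, cyp2aa4 (ENSDARG00000098803), had 38.3, 36.3, 4.07 and 2.27 CPM in Cre driver livers and no count in any Wild Type liver (edgeR adjusted p = 0.0455, past the threshold in 1 of 9 fits). Its Cre driver mean of 20.22 CPM was at least 199-fold above a floor of 3 counts in each Wild Type library. That mean rested mostly on 630 and 628, and the fold is smaller for 621 and 622. The sulfotransferase sult2st3 (ENSDARG00000028367) had 13.7, 76.3, 16 and 29.9 CPM in Cre driver livers and 0.739, 1.01, 0.757, 1.2 and 0.252 CPM in Wild Type livers (5.44 ± 0.62, edgeR adjusted p = 0.006; past the threshold in 9 of 9 fits). The glucuronosyltransferase ugt2b5 (ENSDARG00000116986) had 6.15, 4.32, 9 and 8.02 CPM in Cre driver livers and 13.1, 19.4, 29.4, 19.6 and 17.2 CPM in Wild Type livers (-1.52 ± 0.29, edgeR adjusted p = 0.0463; past the threshold in 1 of 9 fits). These 2 were the called members among 57 transferase genes tested (3.51%, against 0.946% of all genes).

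Of 28 acute phase and iron genes tested, 1 was called (3.57%, against 0.946% of all genes). At an unadjusted p under 0.05, 2 were higher and 7 lower, against 11.0% and 10.1% of all genes. DESeq2 called 2 higher and 5 lower, against 2.99% and 3.42% of its wider set of 25019 genes, and the list median was -0.32. The called gene, hepcidin, hamp (ENSDARG00000102175), the liver hormone that removes the iron exporter from cell membranes, had 101, 142, 231 and 171 CPM in Cre driver livers and 7.47, 15.2, 22.8, 51.1 and 35.9 CPM in Wild Type livers (2.61 ± 0.50, edgeR adjusted p = 0.0463; past the threshold in 2 of 9 fits). Every Cre driver fish lay above every Wild Type fish. The iron exporter gene SLC40A1 (ENSDARG00000000241) itself, chosen after its values were seen, had 11.3, 10.8, 13.9 and 34.2 CPM in Cre driver livers and 32.3, 21.3, 230, 190 and 308 CPM in Wild Type livers, with fish 622 inside the Wild Type range and no call (-3.15 ± 0.82, edgeR adjusted p = 0.0838). mhc2dab (ENSDARG00000079105), an MHC class II chain, was near 0 in Wild Type livers, with 12, 36.3, 55.7 and 45.2 CPM in Cre driver livers and 0.207, 0.37, 1.47, 0.928 and 0.252 CPM in Wild Type livers (5.88 ± 0.68, edgeR adjusted p = 0.006; past the threshold in 9 of 9 fits). It was the only one of 28 MHC and antigen presentation genes tested to be called (3.57%, against 0.946% of all genes). The lectin hbl4 (ENSDARG00000054202) had 167, 83.4, 137 and 217 CPM in Cre driver livers and 50.4, 58.2, 56.4, 60.9 and 27.5 CPM in Wild Type livers (1.58 ± 0.31, edgeR adjusted p = 0.0499; past the threshold in 1 of 9 fits). The chemokines ccl34b.4, ccl35.1, ccl38a.4 and ccl38a.5 were called too, all higher, and were chosen after their values were seen. They passed in 1, 3, 1 and 2 of the 9 fits. Of these, ccl34b.4 (ENSDARG00000094002) had 2.44, 8.53, 10.2 and 13.7 CPM in Cre driver livers and 1.03, 0.941, 2.23, 1.74 and 1.94 CPM in Wild Type livers. Chemokine genes were not counted as a list, so no share of tested members is given and no direction of the family follows. The chemokine ccl39a.10, described above, was not called and had an estimate in the other direction (-2.17 ± 2.54, edgeR adjusted p = 0.654).

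Of 36 chaperone and unfolded protein genes of the endoplasmic reticulum tested, 0 were called by edgeR, 6 were higher and 2 lower at an unadjusted p under 0.05, and DESeq2 called 3 higher and 1 lower. The shares of all genes were 11.0% and 10.1% at that p, and 2.99% and 3.42% of the wider set of 25019 genes in DESeq2. hsp70l (ENSDARG00000055723), a heat-induced HSP70, had 16.4, 6.57, 3.13 and 3.32 CPM in Cre driver livers and 0.591, 0.908, 1.39, 1.24 and 0.617 CPM in Wild Type livers (2.96 ± 0.54, edgeR adjusted p = 0.0387; past the threshold in 2 of 9 fits). It was the 1 called member of 24 immediate early and heat shock genes tested (4.17%, against 0.946% of all genes). Of the 24, 9 were higher and 1 lower at an unadjusted p under 0.05, against 11.0% and 10.1% of all genes. DESeq2 called 8 of this list higher and 1 lower. ern1 (ENSDARG00000013997), a sensor of unfolded protein in the endoplasmic reticulum, had 24.3, 17.8, 26.9 and 25.5 CPM in Cre driver livers and 10.9, 9.68, 13.7, 13.2 and 12.5 CPM in Wild Type livers (0.98 ± 0.19, edgeR adjusted p = 0.045; past the threshold in 0 of 9 fits), and DNAJB9 (ENSDARG00000052072, shared symbol), a chaperone partner, 6.5, 12.6, 2.37 and 1.93 CPM and 0.443, 1.01, 0.677, 0.58 and 0.252 CPM (3.31 ± 0.61, edgeR adjusted p = 0.0407; past the threshold in 3 of 9 fits). Neither was among the genes matched to these lists, and both were chosen after their values were seen. DNAJB9 followed the split of the Cre driver fish, highest in 630 and 628, and ern1 did not. Other called genes of high level were higher too. The splicing factor PRPF39 (ENSDARG00000100209) had 160, 149, 153 and 158 CPM in Cre driver livers and 59.5, 69.4, 84.6, 85.9 and 66.1 CPM in Wild Type livers (1.08 ± 0.17, edgeR adjusted p = 0.0231; past the threshold in 6 of 9 fits). rsrp1 (ENSDARG00000030440), an arginine and serine rich nuclear protein, had 284, 383, 238 and 249 CPM in Cre driver livers and 92.3, 104, 76.9, 61.4 and 60.7 CPM in Wild Type livers (1.87 ± 0.23, edgeR adjusted p = 0.00784; past the threshold in 9 of 9 fits). Both had a narrow spread within the groups. TOB1 (ENSDARG00000032619), an inhibitor of proliferation, had 462, 354, 257 and 316 CPM in Cre driver livers and 145, 218, 141, 130 and 149 CPM in Wild Type livers (1.15 ± 0.23, edgeR adjusted p = 0.0488; past the threshold in 1 of 9 fits).

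The remaining named increases included matrix, transport and enzyme genes. COL12A1 (ENSDARG00000019601, shared symbol), a collagen chain of the fiber surface, had 5.91, 5.29, 8.06 and 7.77 CPM in Cre driver livers and 0.177, 0.303, 0, 0.0773 and 0.112 CPM in Wild Type livers (5.58 ± 0.57, edgeR adjusted p = 0.00417; past the threshold in 9 of 9 fits). The riboflavin transporter slc52a3-2a (ENSDARG00000062502) had 2.28, 2.53, 15.1 and 8.06 CPM in Cre driver livers and 0.0591, 0.101, 0.0797, 0.503 and 0.196 CPM in Wild Type livers (5.22 ± 0.78, edgeR adjusted p = 0.0193; past the threshold in 9 of 9 fits). Both were close to 0 in every Wild Type fish. DNPH1 (ENSDARG00000075730), a nucleotide hydrolase, had 10.6, 17, 22.3 and 17.2 CPM in Cre driver livers and 1.8, 0.975, 0.877, 0.155 and 0.0561 CPM in Wild Type livers (4.43 ± 0.74, edgeR adjusted p = 0.0272; past the threshold in 5 of 9 fits), and DIPK2A (ENSDARG00000055629, shared symbol) 16.5, 2.19, 14.9 and 3.07 CPM and 0.739, 0.639, 0.398, 0.928 and 0.309 CPM (3.92 ± 0.66, edgeR adjusted p = 0.0278; past the threshold in 2 of 9 fits). The gene with the lowest adjusted p of the comparison was si:dkeyp-100h4.1 (ENSDARG00000078167), with 13.4, 14.9, 14.3 and 10.8 CPM in Cre driver livers and 0.355, 0.37, 0.438, 0.851 and 0.814 CPM in Wild Type livers (4.55 ± 0.33, edgeR adjusted p = 0.000885; past the threshold in 9 of 9 fits). For a pair of genes, 1 fish stood far above the rest. The matrix gene abi3bpb (ENSDARG00000071095) had 1.65, 31.4, 2.03 and 2.39 CPM in Cre driver livers and 0.118, 0.269, 0.12, 0 and 0.14 CPM in Wild Type livers, and the tight junction gene cldnb (ENSDARG00000009544) 0.985, 23.4, 2 and 2.39 CPM and 0.266, 0.0672, 0.0398, 0.155 and 0.14 CPM, both highest in fish 628, which also had krt5 (6.11 ± 1.13, edgeR adjusted p = 0.0407 and past the threshold in 4 of 9 fits for abi3bpb; 5.68 ± 1.03, edgeR adjusted p = 0.0398 and past the threshold in 4 of 9 fits for cldnb). The remaining 3 Cre driver fish still lay above all Wild Type fish for both.

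Of the named decreases at high level, a pair were paralogs. ppdpfa (ENSDARG00000007682), named for its part in the growth of pancreatic progenitors, had 196, 137, 205 and 230 CPM in Cre driver livers and 1460, 1070, 1540, 933 and 1990 CPM in Wild Type livers, with a wide gap between the groups (-2.86 ± 0.28, edgeR adjusted p = 0.00417; past the threshold in 9 of 9 fits). ppdpfb (ENSDARG00000031317) had 175, 53.3, 37.7 and 90.8 CPM in Cre driver livers and 698, 446, 1210, 1210 and 1110 CPM in Wild Type livers (-3.39 ± 0.52, edgeR adjusted p = 0.0195; past the threshold in 8 of 9 fits). Fish 317C8 had the highest ppdpfa level and the lowest pancreas marker sum of all. The other Wild Type fish had pancreas sums of 739.4 to 7028 CPM, above the 51.45 to 626.9 CPM of the Cre driver fish. Whether these genes follow pancreatic tissue was not tested. spp2 (ENSDARG00000095590), a secreted phosphoprotein, fell to 40.6, 57.3, 54.3 and 69.6 CPM in Cre driver livers, against 215, 261, 759, 383 and 594 CPM in Wild Type livers (-3.0 ± 0.41, edgeR adjusted p = 0.0122; past the threshold in 9 of 9 fits). The centrosome gene cep192 (ENSDARG00000104831) had 6.66, 6.6, 9.64 and 9.37 CPM in Cre driver livers and 115, 137, 55.3, 23.4 and 46 CPM in Wild Type livers (-3.22 ± 0.51, edgeR adjusted p = 0.0232; past the threshold in 5 of 9 fits). LARGE2 (ENSDARG00000017058), a glycosyltransferase of dystroglycan, had 0.236, 2.36, 2.11 and 1.39 CPM in Cre driver livers and 21.9, 15.7, 12.3, 7.85 and 15.1 CPM in Wild Type livers (-3.24 ± 0.56, edgeR adjusted p = 0.0339; past the threshold in 3 of 9 fits). None of these 5 genes overlapped between the groups, as the rule for naming them required.

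Several lower genes had a low level in Cre driver livers, under 1 CPM in each fish. XKR9 (ENSDARG00000026500), of a family of phospholipid scramblases, had 0, 0.228, 0.264 and 0.21 CPM in Cre driver livers and 31.1, 24.4, 8.33, 4.68 and 6.99 CPM in Wild Type livers (-6.37 ± 0.87, edgeR adjusted p = 0.0122; past the threshold in 9 of 9 fits). TMEM243 (ENSDARG00000042214, shared symbol) had 0.276, 0.114, 0 and 0.21 CPM in Cre driver livers and 6.44, 5.68, 9.88, 4.56 and 14.4 CPM in Wild Type livers (-5.76 ± 0.68, edgeR adjusted p = 0.00601; past the threshold in 9 of 9 fits), and chchd3b (ENSDARG00000034933), of the inner mitochondrial membrane, 0.512, 0.483, 0.339 and 0.378 CPM and 16.6, 8.61, 4.74, 1.74 and 2.22 CPM (-3.97 ± 0.71, edgeR adjusted p = 0.0374; past the threshold in 3 of 9 fits). The Wild Type fish 317C1 and 317C2 were highest for XKR9 and 317C8 for TMEM243. The retinol binding gene RBP7 (ENSDARG00000070486) had at most 2 counts in each Cre driver library and 0.739, 0.269, 8.53, 3.71 and 4.43 CPM in Wild Type livers, with 2 of these low (edgeR adjusted p = 0.0443; past the threshold in 1 of 9 fits, with the gene tested in 5 of the 9). No fold is given for it. Among markers of other cells, the endothelial clotting factor vwf (ENSDARG00000077231) had 1.1, 0.597, 0.678 and 1.43 CPM in Cre driver livers and 3.46, 4.37, 3.82, 4.64 and 5.55 CPM in Wild Type livers (-2.2 ± 0.32, edgeR adjusted p = 0.0159; past the threshold in 9 of 9 fits). The globin hbaa2 (ENSDARG00000069735) had 2.28, 4.32, 7.16 and 2.44 CPM in Cre driver livers and 17.9, 19.1, 19, 16.2 and 14.3 CPM in Wild Type livers (-2.09 ± 0.34, edgeR adjusted p = 0.0263; past the threshold in 4 of 9 fits). Each was the only called member of its list, of 15 endothelial and 15 erythrocyte markers tested (6.67% of each list, against 0.946% of all genes). The remaining named decreases, ENSDARG00000104968 at a log2 fold change of -4.46 (9 of 9 fits), si:ch211-286b4.4 (ENSDARG00000096859) at -4.07 (1 of 9) and si:dkey-37f13.3 (ENSDARG00000105780) at -3.25 (9 of 9), have no described role in the tables used here.

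**Figure D5:**
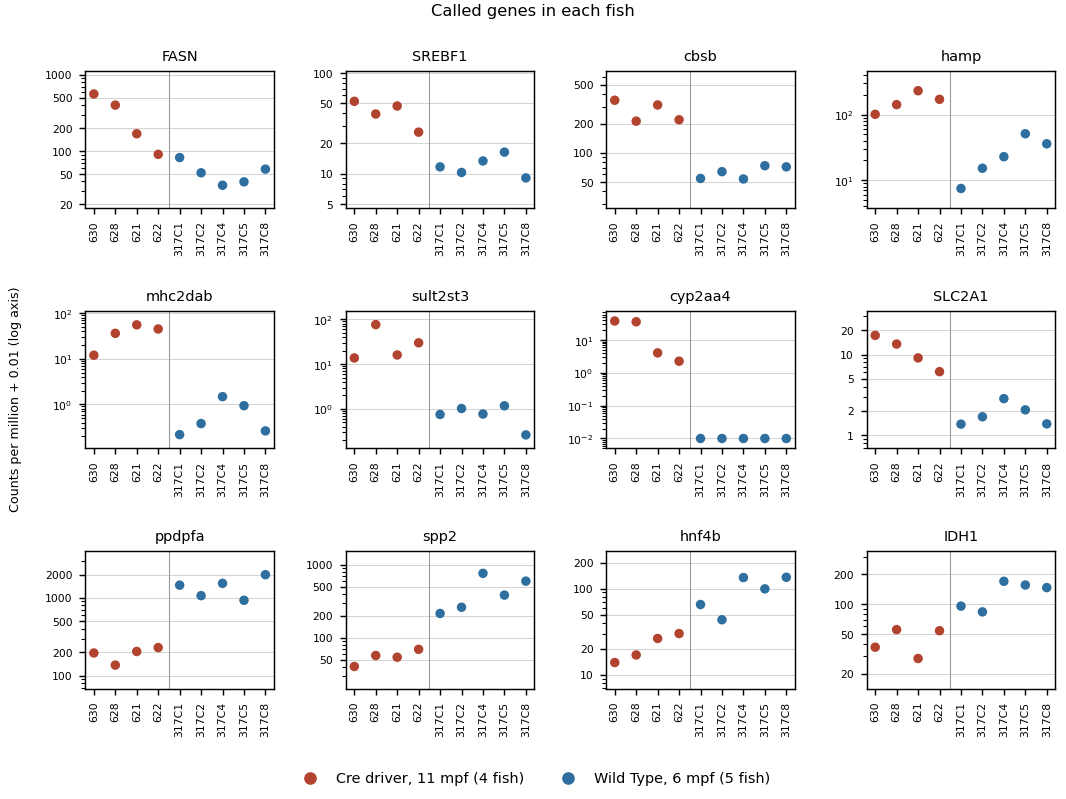
Level of 12 called genes in each fish, in CPM plus 0.01 on a log axis, with Cre driver fish (11 mpf) left of Wild Type fish (6 mpf). Each point is 1 fish. In all 12 panels every Cre driver fish lies on one side of every Wild Type fish. FASN has 1 close pair (90.7 CPM in fish 622 and 82.3 CPM in fish 317C1). Genes named for a large change or high level were taken only from those without overlap.

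Over whole pathways few members were called. For comparison, 11.0% of all genes were higher and 10.1% lower at an unadjusted p under 0.05. DESeq2 called 2.99% higher and 3.42% lower, but of 25019 genes, a wider set than the genes edgeR tested. Of 35 fatty acid oxidation genes tested, 0 were called by edgeR, 16 were lower and 2 higher at an unadjusted p under 0.05, and DESeq2's Wald test called 12 lower and 1 higher. The list median log2 fold change was -0.47, against 0.03 for all genes. HADHB (ENSDARG00000102055), of the trifunctional protein that shortens long fatty acids, had 170, 87.1, 89.6 and 110 CPM in Cre driver livers and 250, 194, 282, 212 and 295 CPM in Wild Type livers (-1.11 ± 0.25, edgeR adjusted p = 0.0616), and ACADM (ENSDARG00000038900), which starts the cycle for medium chains, 394, 352, 449 and 488 CPM and 570, 560, 671, 601 and 744 CPM (-0.58 ± 0.17, edgeR adjusted p = 0.111). In both the groups did not overlap, as in 9.30% of all genes. Of 44 amino acid, ammonia and urea genes tested, cbsb was the 1 called (2.27%, against 0.946% of all genes). At an unadjusted p under 0.05, 15 were higher and 1 lower, with a list median of 0.40. DESeq2's Wald test called 8 higher and 1 lower. GNMT (ENSDARG00000006840), which methylates glycine, had 350, 351, 341 and 360 CPM in Cre driver livers and 273, 228, 207, 204 and 206 CPM in Wild Type livers, without overlap (0.65 ± 0.16, edgeR adjusted p = 0.0729). HADHB, ACADM and GNMT were chosen after their values were seen.

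Lists tied to immune cells and to other tissues held no or few calls. Of 33 interferon response genes tested, 0 were called by edgeR, while 14 were lower and 1 higher at an unadjusted p under 0.05 and DESeq2 called 13 lower, with a median of -0.91. This rested on 317C4, 317C5 and 317C8, as the levels above show. Of 18 lymphocyte markers tested, 0 were called, 8 were higher and 1 lower at an unadjusted p under 0.05, and DESeq2 called 5 higher and 1 lower, with a median of 0.98. All but 1 of the 18 had an average log2 CPM under 2. Of 18 exocrine pancreas markers tested, 0 were called, 15 were lower at an unadjusted p under 0.05 and DESeq2 called 6 lower. Of 26 cholesterol genes tested, 0 were called, 10 were higher at an unadjusted p under 0.05, and DESeq2 called 3. Cytosolic ribosomal protein genes had 0 of 93 called, with 7 lower at an unadjusted p under 0.05, a share under the 10.1% of all genes, and a median of -0.23, and DESeq2 called 1. Hepatocyte products had 0 of 34 called, with 5 lower at an unadjusted p under 0.05, a median of -0.15, and 3 called by DESeq2.

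A few genes were on in every fish of 1 group and off in the other. With at most 3 counts in each library of 1 group and at least 1 CPM in each of the other, 3 genes were off in Wild Type and 2 off in Cre driver livers. Folds here set the mean CPM of the group with counts over the floor of the other, and single fish can lie below them. Besides cyp2aa4, ftr80 (ENSDARG00000067661), of the finTRIM family of fish, had 11, 16.3, 9.08 and 3.11 CPM in Cre driver livers and 2 counts in all Wild Type livers, both in 317C8, at least 96.7-fold higher (edgeR adjusted p = 0.00274; past the threshold in 9 of 9 fits). In the other direction si:dkeyp-72e1.9 (ENSDARG00000103743) had no count in Cre driver livers and 1.18, 2.15, 1.91, 3.25 and 1.85 CPM in Wild Type livers, at least 18.7-fold lower, and si:ch211-235f1.3 (ENSDARG00000095179) no count and 2.42, 1.41, 1.55, 3.17 and 1.68 CPM, at least 18.5-fold lower (edgeR adjusted p = 0.006 and past the threshold in 9 of 9 fits for each). In the CreLox livers with or without HCC, from fish given tamoxifen as larvae, si:dkeyp-72e1.9 had at most 3 counts and si:ch211-235f1.3 none in all 6. Of the 5 HepABC livers with HCC, 5 and 4 had over 3 counts. These genes off in Wild Type livers were not off throughout their experiment: ftr80 reached 584 counts and cyp2aa4 39 in single HepABC livers with HCC.

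The HCC livers of the same experiments could be set beside these results with no library in common. They also differ by age, experiment, line and the removal of optical duplicates, and in addition by the tumor model. Per the study's methods the CreLox fish were treated with tamoxifen as larvae, which is not described for the HepABC fish. Of the 144 genes, 138 were tested between CreLox and HepABC livers with HCC, and 100 (72.5%) had the same direction there, against 57.7% of 14891 genes tested in both. Of the 138, 56 had the same direction with an adjusted p under 0.05 from edgeR and 8 the opposite, where 28.8% of all genes were called. The called increases kept their direction in 63 of 76 and the decreases in 37 of 62. For mhc2dab the log2 fold change was 5.31 ± 0.37 between the HCC livers (edgeR adjusted p = 0.00013), for COL12A1 3.83 ± 0.28 (edgeR adjusted p = 0.00013) and for si:dkeyp-100h4.1 5.52 ± 0.43 (edgeR adjusted p = 0.000138). SLC25A36 and hbaa2 had the opposite direction there, at 1.2 ± 0.22 (edgeR adjusted p = 0.00427) and 2.99 ± 0.96 (edgeR adjusted p = 0.0405), and FASN, at 0.73 ± 0.66, and hnf4b, at 0.08 ± 0.23, were not called.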

How the data were processed

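Poly(A) RNA of each liver was sequenced as paired 150-base reads, 1 library per fish. Per the labels and the study's methods, the authors aligned reads with STAR 2.6.1b to GRCz11 and counted them per gene with featureCounts 1.6.3 in both experiments. Optical duplicates are described as removed for the CreLox experiment only, which can lower the counts of very abundant genes. The deposited values are raw counts per gene, 1 table per experiment. The authors' comparisons were not used.

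Counts of the 9 libraries were joined by gene identifier. Genes with low counts were removed with filterByExpr, TMM factors were computed, and the groups were compared with edgeR 4.0.16 (quasi-likelihood F test, Benjamini-Hochberg adjustment over 15220 genes, R 4.3.3). limma 3.58.1 and DESeq2 1.42.0 gave alternatives. Intervals and floors (3 counts, 0.0842 to 0.126 CPM per library) cover counting error only. No 2 libraries agreed within sampling noise (lowest chi-square per degree of freedom 59.7).

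Genes were named by rule: the 20 most abundant, the most variable with a symbol, the called genes with the largest changes or highest levels, called members of gene lists, and genes off in 1 group; others are marked as chosen after their values were seen. Some genes that the rule takes are not reported here. The members and lists were chosen with earlier results of these data known. Of the identifiers, symbols come from a gene name table. Sequences, coordinates and transcript lengths were not used here.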

Additional observations from a re-analysis of the deposited data

Results flagged for a closer look

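Of 250 group values checked, 12 had 1 fish far from the others of its group, by Dixon's criterion of the gap to the nearest fish over the range. The limits used give about 1 in 20 such groups for independent, normally distributed values, and 4.8% were found. The values checked were CPM without a log, partly of genes chosen for their spread or group difference. That rate may not hold for them, so the 4.8% cannot be compared with chance. The genes krt5, bcan, CYP2R1, wu:fa56d06 and zgc:92590 were among those checked because they were named for a wide spread within groups.

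Fish 628 stood apart in 4 genes. It had 596 CPM of krt5 against 0.197 to 0.791 CPM in the other Cre driver fish, 31.4 CPM of abi3bpb against 1.65 to 2.39 CPM, 23.4 CPM of cldnb against 0.985 to 2.39 CPM, and 1.34 CPM of wu:fa56d06 against 1.51 to 1.54 CPM, the last a gap of no practical size. Fish 621 had 56.3 CPM of bcan, a brain matrix proteoglycan gene, where the other Cre driver fish had at most 0.0853 CPM, and 7.35 CPM of zgc:92590 against 0.0284 to 0.126 CPM. Fish 622 had a summed level of biliary markers of 2720 CPM, against 1690 to 1830 CPM in the other 3.

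Among Wild Type fish, 317C1 had 256 CPM of zgc:92590, where the others had 0.0842 to 53.8 CPM, and a summed level of p53 and cell cycle arrest genes of 1580 CPM, where the others had 692 to 903 CPM. Fish 317C2 had 129 CPM of CYP2R1, against 1.24 to 11.3 CPM, and 218 CPM of TOB1, against 130 to 149 CPM. The ftr80 value of 317C8, 0.0561 CPM, stood apart only because the other 4 had no count.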

How the results depend on the processing

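The count of 144 called genes depended on the method. It was 1603 with DESeq2's Wald test, 916 in a fit of all 20 libraries, and 62 when every library had to hold at least 10 counts. It was 133 with DESeq2 size factors, 150 with library size alone, 101 with all genes that had a count, 130 with limma voom, and 139 with an absolute log2 fold change over 1. With library size alone the median over all genes was 0.18 on the log2 scale in place of 0.03, and 97 genes were higher and 53 lower. Leaving out 1 fish gave 57 to 138 calls. Chosen after seeing the data, leaving out 630 and 628 gave 25 calls, 317C1 and 317C2 742, and 621 and 622 1506. In each of these settings every one of the 144 genes that was tested kept its sign. The groups did not overlap in 143 of the 144, so leaving out fish could hardly reverse a sign. The other settings used the same counts, so the kept signs are no separate evidence of stability. The cause of the differences between settings was not tested.

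The 5 genes on in 1 group and off in the other numbered 14 with at most 10 counts as the floor, 0 with at least 5 CPM in the other group, and 5 to 9 with 1 fish left out. The 647 genes variable between fish numbered 439 to 925 over the settings tried. The share of the 20 most abundant genes differed by -2.27 to -0.55 percentage points with 1 fish left out. No paired analysis was possible because the 2 groups come from different experiments and their fish share no number in the labels. With 4 and 5 fish, small differences may have been missed.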
